A study of Mus musculus with 28 samples.

Results

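Gene expression was compared between DN4 thymocytes that carry an Lmo2 transgene and a deletion of Ldb1 (Lmo2tg; Ldb1-KO, called Ldb1-KO here) and DN4 thymocytes with the same transgene and intact Ldb1 (Lmo2tg). The libraries were chosen by their labels alone: 5 Ldb1-KO DN4 and 5 Lmo2tg DN4 libraries, 10 of the 28 libraries of a mouse RNA sequencing series. The series also holds the same genotypes at an earlier stage, DN2/3 (5 libraries each), and wild type C57BL/6 cells at both stages (4 libraries each). Wild type DN4 values are given for reference without a test, because the wild type libraries follow another naming pattern than the transgenic ones, so that library series and genotype cannot be told apart. All Ldb1-KO cells carry the Lmo2 transgene, and a group with Ldb1 deleted and no transgene was not analysed here. The labels list loxP-flanked Ldb1 mice and the Lck-Cre, Rag1-Cre and IL-7Ra-Cre lines, but which Cre made each library, and which promoter drives the transgene, the sources used here do not say. No age or sex is given either. The labels call them CD4 T cells, although DN4 names a double-negative subset. Whether replicates were separate animals is not stated, and p-values therefore cover the variation among these libraries, part of which may be technical.

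Thymocytes pass through double-negative (DN) stages, named for the lack of surface CD4 and CD8, before they become double-positive. At the DN3 stage the beta chain of the T-cell receptor is rearranged and tested in the pre-TCR, and cells that pass proliferate and become DN4. Lmo2 is a LIM-only adaptor that binds no DNA itself. It joins basic helix-loop-helix proteins such as Tal1 or Lyl1, their E-protein partners and GATA factors into a complex, in which Ldb1, through its LIM-interaction and self-association domains, links the parts and bridges distant sites. Lmo2 is normally shut down as T cells form, and its forced expression in thymocytes is a cause of T-cell acute lymphoblastic leukemia in mouse and human.

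Values are CPM, counts per M counts of a library with TMM-scaled library sizes, given as mean ± SD of 5 libraries a group (4 for wild type). CPM are not divided by gene length, so they compare libraries and not genes. Log2 fold changes (log2FC, Ldb1-KO over Lmo2tg, with SE) and adjusted p come from edgeR's quasi-likelihood F-test on the 10 libraries. A gene is said to have risen or fallen where its Benjamini-Hochberg adjusted p over the 13106 genes tested was under 0.05. Of these genes, 2506 had an unadjusted p under 0.05, and DESeq2, another test, called 571 higher and 874 lower. These counts, with the 2.04% higher and 3.16% lower by edgeR, are the background for counts within the gene lists. In the fit of all 28 libraries 5.85% were higher and 8.71% lower. Total counts ran from 31.3 to 67.9 M in the Ldb1-KO libraries and from 32.7 to 60.9 M in the Lmo2tg libraries. The Lmo2tg libraries differed more among themselves than the others: the median SD of log2 CPM per gene was 0.221 in Ldb1-KO, 0.398 in Lmo2tg and 0.154 in wild type DN4. For these SDs alone the library sizes were not TMM-scaled, so differences in scaling between libraries are part of them. In these bulk samples, fewer cells of a type and less RNA per cell cannot be told apart.

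The identity markers were those of thymocytes in both groups. The summed level of 8 thymocyte genes (Cd3e, Cd3d, Cd3g, Lck, Thy1, Tcf7, Bcl11b and Ptprc) was 8584 to 9379 CPM in Ldb1-KO, 7756 to 8773 CPM in Lmo2tg and 8457 to 9035 CPM in wild type DN4. Markers of double-positive thymocytes stood apart in one library of each group. Their sum reached 4225 CPM in Ldb1-KO replicate 2, with a median of 2345 CPM in Ldb1-KO, and 4397 CPM in Lmo2tg replicate 1, with a median of 2148 CPM in Lmo2tg. Cd4 was 329 CPM in Ldb1-KO replicate 2 and 422 CPM in Lmo2tg replicate 1, against 23.6 to 97.8 CPM in the other Ldb1-KO and 13.4 to 54.0 CPM in the other Lmo2tg libraries. B-cell markers summed to 19.1 to 42.3 CPM in Ldb1-KO and to 27.9 to 218 CPM in Lmo2tg, again highest in Lmo2tg replicate 1. Of 11 B-cell markers counted, 8 passed the filter on low counts, which a gene can pass through 1 group alone. All 8 had a log2FC below 0, with a median of -2.26. With the higher sums in Lmo2tg, these signs are a description. The edgeR test called 0 of the 8, and 6 were lower at an unadjusted p under 0.05. Both DESeq2 and the fit of 28 libraries called 6 lower and 0 higher. Without Lmo2tg replicate 4 edgeR called 5 lower. The list of mast cell genes ran from 3.07 to 370 CPM in Ldb1-KO and from 136 to 1578 CPM in Lmo2tg, nearly all of it Cpa3, while the defining markers Fcer1a, Ms4a2 and Tpsb2 had no count. Mcpt8 had 8 counts and Cma1 6 counts in Ldb1-KO, and both had 0 in Lmo2tg. The erythroid genes Hba-a2, Hbb-bs, Hbb-bt and Car1, the granulocyte gene Elane and the platelet genes Pf4 and Ppbp had no count in any of the 10 libraries. The other members of these lists, the globin gene Hba-a1 among them, had counts. Of the 10 erythroid genes, 9 averaged under 1 CPM. Gamma-delta T-cell genes summed to 389 to 1679 CPM in Ldb1-KO, highest in replicate 4, and to 244 to 604 CPM in Lmo2tg. Of the 5 tested, 3 had a log2FC above 0 and 2 below 0. The edgeR test called 0 of them, and the fit of 28 libraries called 1 lower (Sox13) and 0 higher. One of the list, Cd163l1, was 1358 CPM in Ldb1-KO replicate 4 and 44.5 to 405 CPM in the other Ldb1-KO libraries, against 61.1 to 353 CPM in Lmo2tg. Erythroid genes summed to 4.89 to 28.6 CPM in Ldb1-KO, 4.93 to 20 CPM in Lmo2tg and 1.65 to 1.96 CPM in wild type DN4, and myeloid genes to 25.9 to 33.3 CPM in Ldb1-KO, 21.9 to 44.3 CPM in Lmo2tg and 15.7 to 17.4 CPM in wild type. Dendritic cell genes summed to 33.4 to 48.4 CPM in Ldb1-KO and 21.7 to 173 CPM in Lmo2tg, highest in replicate 1, and NK cell genes to 197 to 373 CPM in Ldb1-KO and 258 to 483 CPM in Lmo2tg. Megakaryocyte genes summed to 1.88 to 3.28 CPM in Ldb1-KO and 1.84 to 3.92 CPM in Lmo2tg, and stromal genes to 142 to 239 CPM in Ldb1-KO and 157 to 458 CPM in Lmo2tg. Among these markers Gzmb, a granule protease of killer cells, fell to 0.201 ± 0.0961 CPM in Ldb1-KO, against 3.31 ± 2.94 CPM in Lmo2tg (log2FC -4.03, SE 0.84, adjusted p = 0.0207), a call that ended without Ldb1-KO replicate 1, 2, 3 or 5 (adjusted p up to 0.0655). Epcam, an epithelial adhesion protein, rose to 16.9 ± 2.13 CPM in Ldb1-KO, against 10.3 ± 2.38 CPM in Lmo2tg (log2FC 0.71, SE 0.19, adjusted p = 0.0494), and that call held only without Lmo2tg replicate 4 (adjusted p up to 0.131 without another library).

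Ldb1 transcript checked the labels. It was 21.4, 6.11, 33.9, 54.6 and 12.2 CPM in Ldb1-KO replicates 1 to 5, against 381, 298, 247, 371 and 428 CPM in Lmo2tg replicates 1 to 5. Every Ldb1-KO library lay below every Lmo2tg library, and the group mean fell to 25.7 ± 19.3 CPM in Ldb1-KO, against 345 ± 72.2 CPM in Lmo2tg and 358 ± 18 CPM in wild type DN4 (log2FC -3.75, SE 0.51, adjusted p = 0.00284). The count sums the whole gene (19, 46031570 to 46045214, minus strand, mm10), so transcript of a deleted allele and cells that kept an intact allele cannot be told apart. Lmo2 was 45.4 ± 6.66 CPM in Ldb1-KO and 45.1 ± 13.5 CPM in Lmo2tg, while wild type DN4 cells had 0.0778 ± 0.0708 CPM. The difference in Lmo2 between Ldb1-KO and Lmo2tg did not pass the test (log2FC 0.01, SE 0.19, adjusted p = 0.991). Counts from the transgene and from the cell's own Lmo2 gene are summed in this value.

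**Figure D1:**
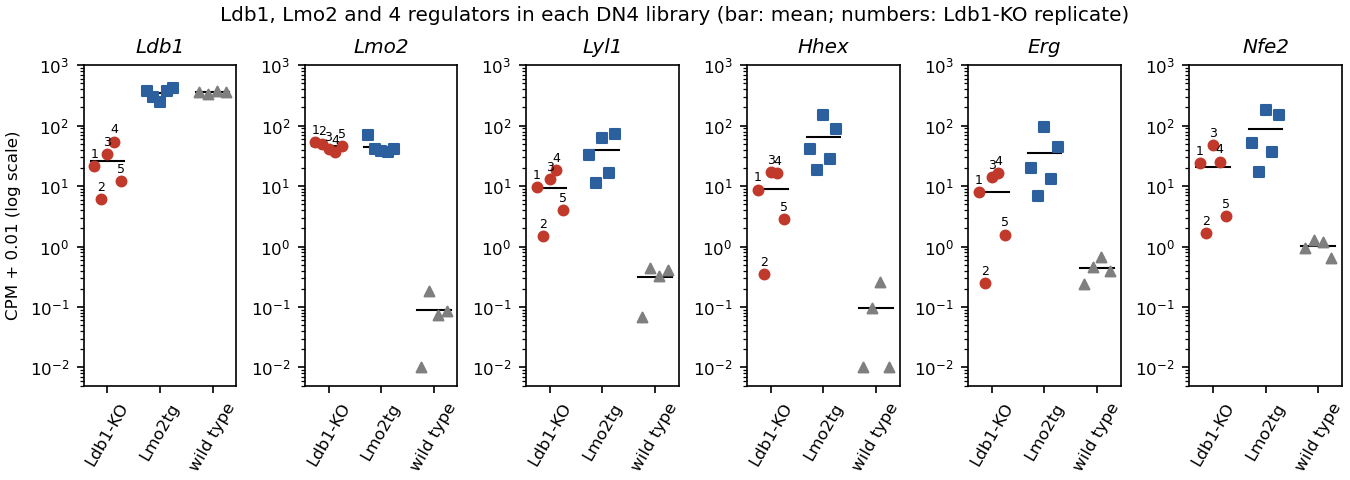
CPM of Ldb1, Lmo2, Lyl1, Hhex, Erg and Nfe2 in each DN4 library (log axis after adding 0.01), with Ldb1-KO left, Lmo2tg in the middle and wild type right, and black bars at the group means. Ldb1 separates the groups, Lmo2 was 45.4 CPM in Ldb1-KO and 45.1 CPM in Lmo2tg on average, and Ldb1-KO replicates 2 and 5 are the lowest Ldb1-KO libraries for Ldb1, Lyl1, Hhex, Erg and Nfe2.

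Genes of the Lmo2 complex and genes of hematopoietic progenitors were examined next, several of them chosen after their values were seen. Lyl1, a basic helix-loop-helix partner of Lmo2, was 9.48, 1.47, 13.1, 18.2 and 3.96 CPM in Ldb1-KO replicates 1 to 5, against 33.2, 11.2, 61.9, 16.5 and 72.6 CPM in Lmo2tg. The groups overlapped through Lmo2tg replicates 2 and 4, and the difference did not pass (log2FC -2.08, SE 0.67, adjusted p = 0.106). Hhex, a homeobox gene of progenitors and a known Lmo2 target, was 8.74, 0.338, 17.2, 16.3 and 2.83 CPM in Ldb1-KO, against 41.5, 18.8, 153, 28.0 and 87.0 CPM in Lmo2tg. Here every Ldb1-KO library lay below every Lmo2tg library, but the spread within Lmo2tg was wide and the test was not passed (log2FC -2.86, SE 0.87, adjusted p = 0.0874). In the fit of all 28 libraries, which shares its estimate of the spread with the less variable groups, the adjusted p was 0.00848 for Lyl1 and 0.00272 for Hhex. Erg, an Ets-family factor of stem cells, averaged 8.05 ± 7.24 CPM in Ldb1-KO and 35.6 ± 35.7 CPM in Lmo2tg, and Nfe2, a factor of erythroid and megakaryocytic cells, averaged 20.4 ± 19.0 CPM in Ldb1-KO and 87.9 ± 74.1 CPM in Lmo2tg. Neither passed in the 10 libraries (adjusted p = 0.246 for Erg and 0.214 for Nfe2), and both were lower in the fit of 28 libraries (adjusted p = 0.0254 for Erg and 0.0256 for Nfe2). Wild type DN4 cells had 0.303 CPM of Lyl1, 0.0849 CPM of Hhex, 0.435 CPM of Erg and 1.01 CPM of Nfe2.

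Among the Ldb1-KO libraries, Ldb1 was lowest in replicate 2, then 5, 1, 3 and 4. Lyl1 and Erg had that same order, and Hhex and Nfe2 had it apart from replicates 3 and 4. Gata1, which was 1.17, 1.28, 2.62, 1.92 and 1.06 CPM in Ldb1-KO replicates 1 to 5, and Kit, which was lowest in replicate 2, then 5, 4, 1 and 3, had other orders. These genes were chosen after their values were seen, no correlation was computed over 5 libraries, and the orders are a description.

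The genes of the complex were also counted as a list. Of 21 genes of the complex and their relatives in the table, 16 passed the filter on low counts. Of these 1 rose and 1 fell (Ldb1 itself), beside 2.04% higher and 3.16% lower of all genes. DESeq2 called 1 higher and 3 lower. In the fit of 28 libraries 2 of 19 were higher and 4 lower, beside 5.85% and 8.71% of all genes. The median log2FC of these 16 was -0.10, beside -0.02 over all genes tested. Ssbp2, a single-stranded DNA-binding protein that binds Ldb1 and protects it from degradation, was 76.6, 109, 79.8, 66.9 and 78.9 CPM in Ldb1-KO, against 65.8, 50.9, 43.8, 47.9 and 33.2 CPM in Lmo2tg. It was the member that rose (log2FC 0.76, SE 0.18, adjusted p = 0.0381). That call ended when any one of Ldb1-KO replicates 1, 2, 3 and 5 or Lmo2tg replicates 2, 3 and 5 was left out (adjusted p up to 0.0991). Ssbp3 was 229 ± 16.4 CPM in Ldb1-KO and 249 ± 17.5 CPM in Lmo2tg, and Lmo4 was 62.4 ± 4.83 CPM in Ldb1-KO and 72.3 ± 13.9 CPM in Lmo2tg. The E-protein genes Tcf3 (303 ± 63.4 CPM in Ldb1-KO, 313 ± 111 CPM in Lmo2tg) and Tcf12 (500 ± 58.6 CPM in Ldb1-KO, 525 ± 52.6 CPM in Lmo2tg) did not pass either. Tal1 and Gata2 were under 0.11 CPM on average in both groups.

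Across all genes, 267 were higher in Ldb1-KO (2.04% of those tested) and 414 were lower (3.16%), or 5.2% in either direction. Of these, 188 rose and 292 fell by more than 2-fold. The libraries of the groups did not overlap at all for 955 genes (7.29%), among them 249 of the genes that rose and 326 of those that fell. Many changes involved genes nearly silent in one group: 130 of the 267 genes that rose had a mean under 1 CPM in Lmo2tg, and 110 of the 414 genes that fell had a mean under 1 CPM in Ldb1-KO. The count of changed genes, 681 in all, depended on single libraries. It was 323, 295, 436 and 315 without Ldb1-KO replicates 1, 2, 3 and 5, 1190 without Lmo2tg replicate 4, and between 469 and 839 without each of the other 5 libraries. The fit of all 28 libraries called 841 genes higher (5.85% of 14371) and 1251 lower (8.71%), 678 of the 681 among them, all in the same direction.

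**Figure D2:**
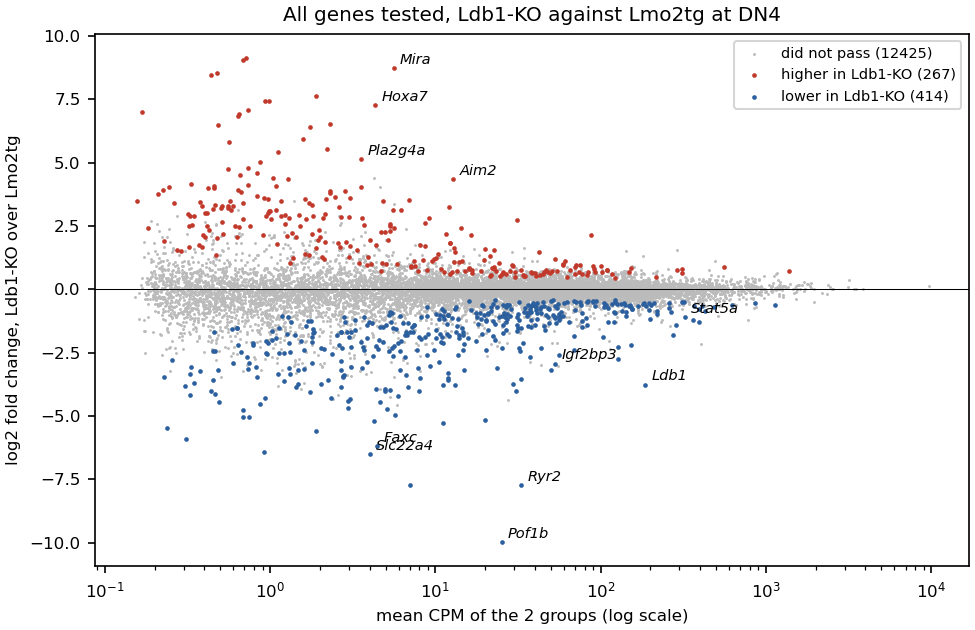
Log2 fold change (Ldb1-KO over Lmo2tg at DN4) against the mean CPM of the groups (log axis), 1 point per gene tested. The 267 genes that rose are red, the 414 that fell are blue, and the largest changes lie among genes of low to moderate level.

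The largest rises among genes with at least 5 CPM and no overlap were Mira and Hoxa7, side by side in the Hoxa cluster on chromosome 6. Hoxa genes encode homeobox factors that are active in blood progenitors and early thymocytes and that are overexpressed in several leukemias. Mira is a long noncoding RNA transcribed beside Hoxa7, and in mouse embryonic stem cells it is known to recruit a histone methyltransferase to Hoxa6 and Hoxa7. It was 8.11, 9.89, 18.7, 13.8 and 5.48 CPM in Ldb1-KO replicates 1 to 5, against 0.0965 CPM in Lmo2tg replicate 1 and no count in the other 4 Lmo2tg libraries (log2FC 8.72, SE 0.82, adjusted p = 0.000699). Hoxa7 was 6.32, 7.39, 12.8, 12.2 and 4.24 CPM in Ldb1-KO, against 0, 0.0696, 0, 0.0479 and 0.182 CPM in Lmo2tg (log2FC 7.26, SE 0.78, adjusted p = 0.000705). The wild type DN4 means were 7.49 ± 1.41 CPM for Mira and 6.65 ± 0.81 CPM for Hoxa7. The start of Mira in RefSeq lies inside the span that GENCODE M21 gives Hoxa7 (6, 52214491 to 52221854), on the same strand, and 20.4% of the exonic bases of Hoxa7 overlap the antisense RNA Hoxaas3. How the authors' counting shared reads between these genes is not given, so the split between Mira and Hoxa7 is uncertain.

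The rest of the Hoxa cluster was near zero in Lmo2tg DN4 cells. Hoxa3 had 342 counts over the 5 Ldb1-KO libraries (1.37 ± 0.329 CPM) and none in Lmo2tg; with 3 counts over the whole Lmo2tg group taken as the floor, it was at least 111-fold higher. Hoxa6 had 248 counts in Ldb1-KO and none in Lmo2tg, which by the same floor makes it at least 80.5-fold higher. Hoxa5 averaged 4.54 ± 2.06 CPM in Ldb1-KO and 0.0467 ± 0.0395 CPM in Lmo2tg (log2FC 6.54, SE 0.65, adjusted p = 0.000699). Hoxa4 had 348 counts in Ldb1-KO and 2 in Lmo2tg, a ratio of 169 with a counting interval of 46.5 to 1404 (exact, 95%). Hoxa9 was 2.48, 2.5, 8.44, 2.70 and 1.12 CPM in Ldb1-KO and at most 0.129 CPM in Lmo2tg (log2FC 6.40, SE 0.92, adjusted p = 0.00355), and it differed from the genes above in wild type DN4 cells, where it was 0.130 ± 0.104 CPM. Hoxa10 had 28 counts and Hoxa13 had 10 counts in Ldb1-KO and none in Lmo2tg, and Hoxa11 had none in either. These genes, and Mira and Hoxa7, passed the filter on low counts, where they did, through their Ldb1-KO counts. Their number is therefore not given as a result, and their calls are a description.

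Among the falls the largest were Pof1b, an actin-binding protein gene, and Ryr2, the calcium release channel of heart muscle. Pof1b was 0.169, 0, 0, 0 and 0.0623 CPM in Ldb1-KO, against 1.17, 5.05, 170, 0.335 and 74.3 CPM in Lmo2tg, and had no count in wild type DN4. The Lmo2tg libraries ranged more than 100-fold among themselves, with replicates 3 and 5 high (log2FC -9.96, SE 2.00, adjusted p = 0.0170), and the call ended without Ldb1-KO replicate 2 or 5 (adjusted p up to 0.0563). Pof1b passed the filter on low counts through its Lmo2tg counts, so its call is a description. Ryr2 was 0.270, 0.0588, 0.336, 0.584 and 0.436 CPM in Ldb1-KO, against 34.0, 159, 66.5, 8.16 and 61.4 CPM in Lmo2tg (log2FC -7.72, SE 0.85, adjusted p = 0.000743). It too had no count in wild type DN4. All Lmo2tg libraries were far above all Ldb1-KO libraries for Ryr2.

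The promoters of Mira, Hoxa7, Pof1b and Ryr2 are shown because these genes head the rises and the falls. Each is 300 bases of RefSeq on GRCm38.p6, from 250 bases before the start to 50 after it, written 5′ to 3′ on the gene's strand. They lie at chr6:52215239-52215538 (Mira), chr6:52218524-52218823 (Hoxa7), chrX:112698602-112698901 (Pof1b) and chr13:12106896-12107195 (Ryr2), all on the minus strand. Capitals mark matches on either strand to CAGNTG, the letters of an E-box, which basic helix-loop-helix factors bind. The letters AGATAA, of the kind bound by Gata factors, and TGTGGT, of the kind bound by Runx factors, were also searched on both strands and matched none of the 4.
Mira: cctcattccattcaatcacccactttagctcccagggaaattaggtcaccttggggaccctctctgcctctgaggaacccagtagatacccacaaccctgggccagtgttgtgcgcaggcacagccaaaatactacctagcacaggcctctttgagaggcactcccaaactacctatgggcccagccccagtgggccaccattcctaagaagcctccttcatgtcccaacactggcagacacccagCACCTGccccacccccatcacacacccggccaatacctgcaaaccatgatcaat
Hoxa7: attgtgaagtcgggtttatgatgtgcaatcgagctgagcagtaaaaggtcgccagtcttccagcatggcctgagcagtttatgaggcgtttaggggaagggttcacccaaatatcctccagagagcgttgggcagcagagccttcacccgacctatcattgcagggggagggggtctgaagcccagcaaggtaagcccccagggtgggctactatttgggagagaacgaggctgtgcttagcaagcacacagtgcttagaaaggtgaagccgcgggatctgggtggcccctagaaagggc
Pof1b: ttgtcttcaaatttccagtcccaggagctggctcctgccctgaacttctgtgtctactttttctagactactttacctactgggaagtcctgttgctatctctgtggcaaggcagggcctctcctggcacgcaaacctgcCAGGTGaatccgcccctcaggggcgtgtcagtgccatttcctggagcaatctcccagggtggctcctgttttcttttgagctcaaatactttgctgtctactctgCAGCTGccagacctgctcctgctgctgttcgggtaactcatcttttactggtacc
Ryr2: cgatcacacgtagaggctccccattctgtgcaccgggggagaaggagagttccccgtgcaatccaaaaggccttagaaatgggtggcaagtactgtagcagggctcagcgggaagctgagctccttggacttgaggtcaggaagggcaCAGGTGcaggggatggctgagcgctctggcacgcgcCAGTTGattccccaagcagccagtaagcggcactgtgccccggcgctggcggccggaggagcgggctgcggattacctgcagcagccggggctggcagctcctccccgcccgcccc
Mira held 1 match, Pof1b and Ryr2 held 2 each, and Hoxa7 held none. CAGNTG is common: it was in 46.5% of the 198 promoters of genes that rose, in 51.4% of the 282 of genes that fell, and in 44.0% of the 9856 promoters of genes tested. AGATAA was in 4.55% of the promoters of genes that rose, 7.09% of those that fell and 6.52% of those tested. TGTGGT was in 11.1% of the promoters of genes that rose, 13.5% of those that fell and 12.8% of those tested. A match is a description of letters and not of binding.

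The other 8 of the 10 largest rises were at 2.31 CPM or less on average in Lmo2tg. Aim2, a sensor of cytosolic DNA, was 25.5, 29.8, 25.3, 14.2 and 27.4 CPM in Ldb1-KO, against 3.43, 0.766, 0.979, 0.0479 and 0.668 CPM in Lmo2tg. It was high in each Ldb1-KO library (log2FC 4.34, SE 0.71, adjusted p = 0.00631). DESeq2 gave Aim2 no adjusted p and so no call. Pla2g4a, the cytosolic phospholipase that frees arachidonic acid, averaged 6.93 ± 1.65 CPM in Ldb1-KO and 0.193 ± 0.181 CPM in Lmo2tg (log2FC 5.15). Eci1, a mitochondrial enzyme of unsaturated fatty acid oxidation, averaged 5.65 ± 2.49 CPM in Ldb1-KO and 0.454 ± 0.373 CPM in Lmo2tg (log2FC 3.61). Kctd17, a substrate adaptor of a ubiquitin ligase, averaged 12.8 ± 2.46 CPM in Ldb1-KO and 1.11 ± 0.924 CPM in Lmo2tg (log2FC 3.52), and Eepd1, a nuclease of stalled replication forks, 8.88 ± 1.4 CPM in Ldb1-KO and 0.796 ± 0.569 CPM in Lmo2tg (log2FC 3.49). The zinc finger genes Zfp518b (6.69 ± 1.37 CPM in Ldb1-KO, 0.397 ± 0.462 CPM in Lmo2tg) and Zfp820 (9.93 ± 2.94 CPM in Ldb1-KO, 1.13 ± 0.919 CPM in Lmo2tg) were also among them. Mllt4, which encodes the junction protein afadin, was 32.9, 17.6, 42.2, 9.06 and 8.19 CPM in Ldb1-KO, against 4.65, 2.09, 0.846, 1.77 and 2.19 CPM in Lmo2tg. It was the one of the 10 whose wild type DN4 mean, 2.76 ± 0.738 CPM, lay near the Lmo2tg mean of 2.31 CPM; for the other 9 the wild type mean was between 5.97 and 19.1 CPM. The adjusted p of these 8 genes was between 0.00228 and 0.0170, and none of the calls ended when a library was left out. Pla2g4a passed the filter on low counts through its Ldb1-KO counts, so its call is a description.

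The other 8 of the 10 largest falls averaged 1.14 CPM or less in Ldb1-KO, and no mean was above 0.854 CPM in wild type DN4 cells. Slc22a4, a transporter of ergothioneine, averaged 0.0901 ± 0.0633 CPM in Ldb1-KO and 7.91 ± 5.69 CPM in Lmo2tg (log2FC -6.51, SE 0.67, adjusted p = 0.000699). Ephb4, a receptor tyrosine kinase for ephrin-B2, was 0.406, 0.176, 1.78, 0.260 and 0.0623 CPM in Ldb1-KO, against 2.51, 33.5, 12.2, 39.2 and 21.6 CPM in Lmo2tg, where replicate 1 was the lowest (log2FC -5.28). Zfp711, a zinc finger activator, averaged 1.14 ± 1.05 CPM in Ldb1-KO and 38.8 ± 31.1 CPM in Lmo2tg (log2FC -5.16). It was 2.18 and 2.37 CPM in Ldb1-KO replicates 4 and 5, and 0.292 CPM on average in wild type DN4. It is the neighbour of Pof1b on the X chromosome, with 3360 bases between the genes. Adamts20, a secreted metalloprotease, averaged 0.359 ± 0.121 CPM in Ldb1-KO and 11 ± 5.25 CPM in Lmo2tg (log2FC -4.96, SE 0.43, adjusted p = 0.000676). Faxc (log2FC -6.20), the homeobox gene Dlx1 (log2FC -5.20), Islr2, a membrane protein of axon growth (log2FC -4.66), and Slc40a1, the iron exporter ferroportin (log2FC -4.44), complete the 10. Dlx1 averaged 0.207 ± 0.393 CPM in Ldb1-KO and 8.26 ± 2.86 CPM in Lmo2tg, and its call ended without Ldb1-KO replicate 1 (adjusted p = 0.0519). Slc40a1 averaged 0.433 ± 0.740 CPM in Ldb1-KO and 8.78 ± 8.67 CPM in Lmo2tg, and its call ended without Ldb1-KO replicate 1, 2, 3 or 5 or Lmo2tg replicate 5 (adjusted p up to 0.0993). Slc22a4, Faxc, Dlx1 and Slc40a1 passed the filter on low counts through their Lmo2tg counts, so their calls are a description.

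**Figure D3:**
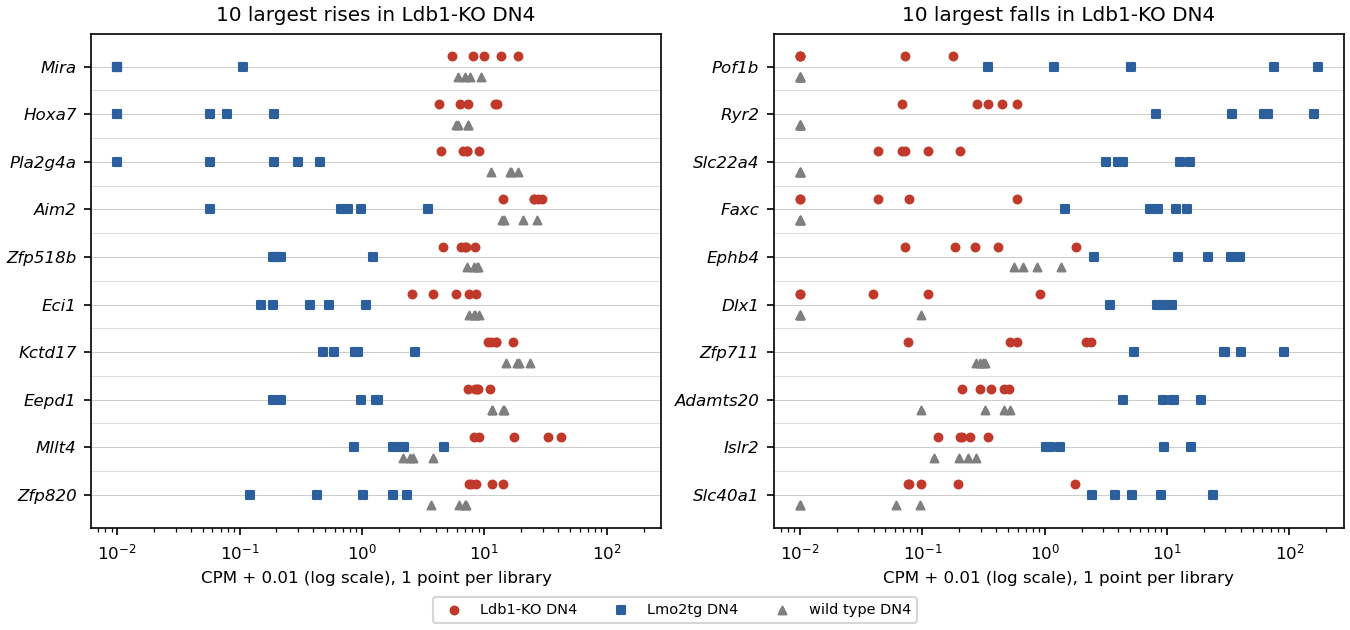
CPM of the 10 largest rises (left) and the 10 largest falls (right) in each library (log axis after adding 0.01), with Ldb1-KO as circles above, Lmo2tg as squares in the middle and wild type DN4 as triangles below. The 20 genes were chosen to have no overlap between Ldb1-KO and Lmo2tg libraries. For Mllt4 alone among the rises the wild type mean, 2.76 CPM, lies near that of Lmo2tg.

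Among stem and progenitor regulators, outside the Hoxa genes, Hmga2 rose and Igf2bp3 and Kit fell. The Hoxa members and Hmga2 passed the filter on low counts through their Ldb1-KO counts, so no count or median of the list is given. Igf2bp3, an RNA-binding protein of fetal cells, was 3.50, 8.30, 17.1, 22.4 and 10.4 CPM in Ldb1-KO, against 68.7, 132, 120, 71.0 and 75.9 CPM in Lmo2tg (log2FC -2.93, SE 0.44, adjusted p = 0.00393). All Lmo2tg libraries were above all Ldb1-KO libraries, and wild type DN4 cells had 11.4 ± 7.12 CPM. Hmga2, a chromatin protein of fetal stem cells, averaged 0.313 CPM in Ldb1-KO and 0.0542 CPM in Lmo2tg, and its call ended without Ldb1-KO replicate 2 (adjusted p = 0.0553). Kit, the receptor for stem cell factor, was 43.8, 24.8, 63.3, 36.4 and 32.6 CPM in Ldb1-KO, against 88.5, 56.3, 220, 62.0 and 139 CPM in Lmo2tg (log2FC -1.50, SE 0.39, adjusted p = 0.0477). The groups overlapped through Lmo2tg replicates 2 and 4. The Kit call ended without Ldb1-KO replicate 1, 2, 4 or 5 or Lmo2tg replicate 3 or 5 (adjusted p up to 0.121), and with upper quartile scaling or either other filter.

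Stat5a, Stat5b and Stat3, signal transducers downstream of cytokine receptors, fell. They were 3 of 19 Jak-Stat genes tested by edgeR, beside 3.16% of all genes. None rose, 16 did not pass, 13 had a log2FC below 0 and 6 above 0, and the median was -0.18. At an unadjusted p under 0.05, 4 were lower and 0 higher, beside 2506 of all 13106 genes in either direction. DESeq2 also called 3 lower and 0 higher. Stat5a, a transcription factor activated by interleukin-7 and other cytokines, was 215, 151, 213, 278 and 170 CPM in Ldb1-KO, against 366, 379, 415, 540 and 501 CPM in Lmo2tg (log2FC -1.10, SE 0.18, adjusted p = 0.00631). Stat5b, its close paralog, was 338, 316, 273, 353 and 305 CPM in Ldb1-KO, against 509, 515, 444, 526 and 502 CPM in Lmo2tg (log2FC -0.66, SE 0.11, adjusted p = 0.00552). Both genes separated the groups, and both calls held without each library in turn. Wild type DN4 cells had 187 ± 4.15 CPM of Stat5a and 273 ± 14.9 CPM of Stat5b. Stat3, a related factor, was 157 ± 29.8 CPM in Ldb1-KO and 281 ± 64.7 CPM in Lmo2tg (log2FC -0.84, SE 0.18, adjusted p = 0.0248), a call that ended without Ldb1-KO replicate 1, 2, 3 or 5 or Lmo2tg replicate 5 (adjusted p up to 0.0762). Stat5b, Stat5a and Stat3 lie next to each other on chromosome 11, with 8626 bases between Stat5b and Stat5a, while the ends of Stat5a and Stat3 overlap by 72 bases on opposite strands. Stat5a and Stat5b are alike in sequence, and the sources used here do not say how reads matching both were counted.

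Cytokine receptors changed in both directions. Of 25 tested, 2 rose and 3 fell (Il7r, Il9r and Kit), beside 2.04% higher and 3.16% lower of all genes. The median log2FC of the 25 was -0.39. Unadjusted, 3 were higher and 5 lower, DESeq2 called 2 higher and 4 lower, and the fit of 28 libraries 3 higher and 4 lower. When 1 library was left out, 1 to 2 rose and 0 to 4 fell. Csf2ra, the alpha chain of the receptor for GM-CSF, was 10.6, 7.65, 6.78, 9.61 and 9.34 CPM in Ldb1-KO, against 1.64, 0.505, 1.42, 1.44 and 3.89 CPM in Lmo2tg (log2FC 2.31, SE 0.44, adjusted p = 0.0128). It was higher in each Ldb1-KO library than in any Lmo2tg library, and wild type DN4 cells had 14 ± 0.973 CPM. Ifngr1, a chain of the interferon-gamma receptor, averaged 378 ± 36.9 CPM in Ldb1-KO and 240 ± 36.7 CPM in Lmo2tg (log2FC 0.65, SE 0.13, adjusted p = 0.0154), and ended without Ldb1-KO replicate 1 or 2 (adjusted p up to 0.0503). Il7r, the interleukin-7 receptor on which early thymocytes depend, was 39.4, 30.8, 39.9, 18.5 and 23.5 CPM in Ldb1-KO, against 196, 48.3, 175, 56.8 and 63.2 CPM in Lmo2tg (log2FC -1.83, SE 0.42, adjusted p = 0.0325). Lmo2tg replicates 1 and 3 were high and the other 3 lay just above Ldb1-KO. The Il7r call ended without any one of the 5 Ldb1-KO libraries or Lmo2tg replicate 3 (adjusted p up to 0.0897). Il9r, the interleukin-9 receptor, averaged 10.2 ± 2.70 CPM in Ldb1-KO and 26.3 ± 14.7 CPM in Lmo2tg (adjusted p = 0.0374), and ended without any one of the 5 Ldb1-KO libraries or Lmo2tg replicate 2 (adjusted p up to 0.102). Il7r is also a marker of mature T cells, and the 12 markers of that list summed to 1144 to 1437 CPM in Ldb1-KO and 985 to 3004 CPM in Lmo2tg. Their part in the fall of Il7r was not tested.

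Proliferation genes had positive fold changes throughout their lists, most of which did not pass. Of 30 genes of DNA replication and nucleotide synthesis tested, 3 rose and none fell, beside 2.04% higher and 3.16% lower of all genes. All 30 had a log2FC above 0, with a median of 0.41, against 46.7% of all genes tested above 0 and a median of -0.02. Of 25 genes of mitosis and chromosome segregation, 1 rose and none fell, all 25 had a log2FC above 0, and the median was 0.61. Rrm2, a subunit of ribonucleotide reductase, which makes the nucleotides for replication, was 754, 696, 771, 670 and 727 CPM in Ldb1-KO, against 227, 455, 317, 548 and 386 CPM in Lmo2tg (log2FC 0.90, SE 0.20, adjusted p = 0.0273). The Ldb1-KO libraries were close together and above each Lmo2tg library. Tyms, thymidylate synthase, averaged 197 ± 7.67 CPM in Ldb1-KO and 109 ± 38.3 CPM in Lmo2tg (log2FC 0.86, SE 0.22, adjusted p = 0.0457), and Ccne2, cyclin E2, 41.3 ± 4.90 CPM in Ldb1-KO and 24.5 ± 6.86 CPM in Lmo2tg (log2FC 0.75, SE 0.19, adjusted p = 0.0474). Ndc80, a kinetochore protein, averaged 104 ± 17.3 CPM in Ldb1-KO and 65.1 ± 13.5 CPM in Lmo2tg (log2FC 0.67, SE 0.17, adjusted p = 0.0440). Wild type DN4 cells had 707 ± 25.6 CPM of Rrm2, 240 ± 29.8 CPM of Tyms, 43.9 ± 6.09 CPM of Ccne2 and 85.3 ± 5.39 CPM of Ndc80.

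Mki67, the proliferation marker, and Ccna2, cyclin A2, were looked at after their values were seen. Mki67 averaged 1392 ± 214 CPM in Ldb1-KO and 910 ± 237 CPM in Lmo2tg (adjusted p = 0.0882). Ccna2 averaged 325 ± 27.0 CPM in Ldb1-KO and 184 ± 63.7 CPM in Lmo2tg, with no overlap (adjusted p = 0.0565). These counts turned on single libraries. Without Lmo2tg replicate 4, 19 mitosis genes and 6 replication genes rose, while without Ldb1-KO replicate 1, 2, 3 or 5 or Lmo2tg replicate 3 or 5 none of either list did. Within Lmo2tg, Rrm2, Tyms and Ccna2 were highest in replicate 4, and Mki67, Ndc80 and Ccne2 in replicate 2. With the replicate number as a block no mitosis gene and 2 replication genes rose, and Ccne2 and Ndc80 no longer passed. At an unadjusted p under 0.05, 9 replication and 19 mitosis genes were higher and none were lower, DESeq2 called 5 and 8 higher, and the fit of 28 libraries 6 and 9. Without one library, the adjusted p reached 0.0747 for Rrm2, 0.104 for Tyms, 0.115 for Ccne2 and 0.116 for Ndc80. The Tyms call also ended without Ldb1-KO replicate 4 or Lmo2tg replicate 2.

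The cell cycle inhibitors and p53 targets that changed all fell. Of 20 Cdk inhibitors and antiproliferative genes tested, 2 fell and none rose, beside 3.16% lower and 2.04% higher of all genes. Their median log2FC was -0.38. Unadjusted, 5 were lower and 0 higher, beside 2506 of all 13106 genes in either direction. DESeq2 called 3 of the list lower, and the fit of 28 libraries 4 lower. Foxo3, a forkhead factor that restrains the cell cycle, was 28.7, 25.1, 29.5, 37.5 and 27.7 CPM in Ldb1-KO, against 49.5, 44.9, 56.6, 53.4 and 80.0 CPM in Lmo2tg, with no overlap (log2FC -0.94, SE 0.17, adjusted p = 0.0102). Cdkn1c, the inhibitor p57, averaged 1.80 ± 0.609 CPM in Ldb1-KO and 3.80 ± 0.507 CPM in Lmo2tg (adjusted p = 0.0452), but its call ended without every library other than Ldb1-KO replicate 1 (adjusted p up to 0.119). Cdkn2a, whose products p16 and p19Arf act through Rb and p53, was 0.473, 0.0588, 1.71, 1.10 and 0.0623 CPM in Ldb1-KO, against 2.25, 2.92, 6.77, 12.7 and 7.20 CPM in Lmo2tg. It was lower in every Ldb1-KO library and just missed the threshold (log2FC -3.22, SE 0.86, adjusted p = 0.0546).

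Of 18 p53 targets tested, 2 fell and none rose, beside 3.16% lower and 2.04% higher of all genes. Their median log2FC was -0.17. Unadjusted, 6 were lower and 2 higher, DESeq2 called 4 lower and 1 higher, and the fit of 28 libraries 6 lower and 1 higher. Phlda3, a p53-induced inhibitor of Akt, was 2.43, 2.69, 3.21, 3.64 and 4.67 CPM in Ldb1-KO, against 10.1, 9.85, 6.77, 14.1 and 12.7 CPM in Lmo2tg, with no overlap (log2FC -1.69, SE 0.25, adjusted p = 0.00420). Bbc3, which encodes the death-promoting Bcl2 relative Puma, was 7.91, 6.65, 5.31, 9.22 and 8.56 CPM in Ldb1-KO, against 18.9, 24.9, 7.48, 27.6 and 28.4 CPM in Lmo2tg (log2FC -1.51, SE 0.32, adjusted p = 0.0217). Lmo2tg replicate 3 overlapped the Ldb1-KO libraries. The Bbc3 call ended without Ldb1-KO replicate 1, 2, 3 or 5 or Lmo2tg replicate 5 (adjusted p up to 0.0645). Bbc3 was also the only one of 15 Bcl2 family genes to change, in a list with a median log2FC of -0.22. Tnfrsf10b, a death receptor and p53 target, was on the other side, at 4.80 ± 1.35 CPM in Ldb1-KO and 2.07 ± 0.791 CPM in Lmo2tg, without passing (adjusted p = 0.0613).

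Most T-lineage genes did not pass. Of 25 T-lineage transcription factors tested, 1 fell and none rose, beside 3.16% lower and 2.04% higher of all genes. Their median log2FC was -0.31. Unadjusted, 8 were lower and 2 higher, DESeq2 called 5 lower and 0 higher, and the fit of 28 libraries 7 lower and 1 higher. The factors of T-cell commitment Tcf7 (log2FC 0.08), Bcl11b (log2FC 0.03), Gata3 (log2FC -0.40) and Runx1 (log2FC -0.31) each had an adjusted p above 0.2. Runx3, which represses Cd4 in thymocytes, averaged 39.8 ± 11.1 CPM in Ldb1-KO and 74.6 ± 19.2 CPM in Lmo2tg (log2FC -0.91, SE 0.23, adjusted p = 0.0477). The call on Runx3 ended without Ldb1-KO replicate 1, 2, 3 or 5 or Lmo2tg replicate 1, 3 or 5 (adjusted p up to 0.123), with upper quartile scaling and with the filter at 1 CPM. Myb, a factor of progenitors and early thymocytes, was 642 ± 83.3 CPM in Ldb1-KO and 1060 ± 330 CPM in Lmo2tg (adjusted p = 0.0665). Of 25 genes of the pre-TCR, CD3 and nearby signalling, 1 rose and none fell (unadjusted, 2 were higher and 4 lower, DESeq2 called 2 higher, and the fit of 28 libraries 2 higher and 3 lower). Thy1, the surface glycoprotein of T cells, averaged 1726 ± 100.1 CPM in Ldb1-KO and 1041 ± 281 CPM in Lmo2tg, with no overlap (log2FC 0.73, SE 0.18, adjusted p = 0.0375). That call held only without Lmo2tg replicate 3 or 4, and without each of the other 8 libraries the adjusted p was up to 0.0920. Ptcra, the pre-TCR alpha chain, was 50.7, 54.7, 47.5, 65.1 and 64.4 CPM in Ldb1-KO, against 12.5, 34.8, 13.8, 38.4 and 30.2 CPM in Lmo2tg, higher in every Ldb1-KO library and just short of the threshold (log2FC 1.12, SE 0.30, adjusted p = 0.0563).

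Among 12 genes of V(D)J recombination edgeR called 0 (unadjusted, 3 were higher and 0 lower, DESeq2 called 2 higher, and the fit of 28 libraries 3 higher). Dntt, terminal transferase, was 1293 ± 108 CPM in Ldb1-KO and 1147 ± 133 CPM in Lmo2tg. Rag2, a subunit of the recombinase, was 33.5, 86.6, 40.4, 35.4 and 47.0 CPM in Ldb1-KO, against 41.2, 18.9, 18.4, 9.17 and 14.1 CPM in Lmo2tg (adjusted p = 0.0941). It was highest in the libraries with most double-positive markers, Ldb1-KO replicate 2 and Lmo2tg replicate 1, and the part of those cells in it was not tested. Of 18 Notch receptors and targets, 1 fell and none rose, beside 3.16% lower and 2.04% higher of all genes. Unadjusted, 3 were lower and 2 higher, DESeq2 called 2 in each direction, and the fit of 28 libraries 3 lower and 2 higher. Heyl, a repressor induced by Notch, averaged 2.32 ± 0.590 CPM in Ldb1-KO and 5.60 ± 1.89 CPM in Lmo2tg (log2FC -1.27, SE 0.28, adjusted p = 0.0269), a call that ended without Ldb1-KO replicate 1, 2, 3 or 5 (adjusted p up to 0.0787). Notch3 (129 ± 35.3 CPM in Ldb1-KO, 144 ± 45.7 CPM in Lmo2tg) and Hes1 (28.2 ± 10 CPM in Ldb1-KO, 40.4 ± 28.2 CPM in Lmo2tg) did not pass.

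Among adhesion and homing genes most fold changes were negative and 1 passed. Of 19 tested, 1 fell and none rose, beside 3.16% lower and 2.04% higher of all genes. In the list 16 were below 0, and the median log2FC was -0.56. Unadjusted, 6 were lower and 1 higher, DESeq2 called 5 lower and 1 higher, and the fit of 28 libraries 6 lower and 1 higher. Cd44, the hyaluronan receptor that is lost as thymocytes leave the earliest DN stages, was 2.18, 2.00, 1.98, 1.10 and 1.62 CPM in Ldb1-KO, against 30.4, 6.84, 12.3, 3.64 and 3.89 CPM in Lmo2tg (log2FC -2.68, SE 0.57, adjusted p = 0.0225). Lmo2tg replicate 1 was the highest and also held the most B-cell and mature T-cell markers, whose part in Cd44 was not tested. The Cd44 call held without that library and ended without any one of the 5 Ldb1-KO libraries (adjusted p up to 0.0666). Itga4 and Itgb7, which together form an integrin of lymphocyte homing, were 473 ± 167 and 86.1 ± 28.9 CPM in Ldb1-KO, against 1087 ± 713 and 218 ± 131 CPM in Lmo2tg, and neither passed (adjusted p = 0.0970 for Itga4 and 0.111 for Itgb7).

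Of interferon-induced genes 1 rose, and no gene of MHC class I presentation passed. Of 28 interferon response genes, 1 rose and none fell, beside 2.04% higher and 3.16% lower of all genes. Their median log2FC was 0.09 (unadjusted, 3 were higher and 0 lower, and both DESeq2 and the fit of 28 libraries called 3 higher). Ifi44 was 1.83, 1.62, 2.82, 1.01 and 1.28 CPM in Ldb1-KO, against 0.515, 0.0696, 0.0445, 0 and 0 CPM in Lmo2tg (log2FC 3.62, SE 0.89, adjusted p = 0.0411). It was higher in each Ldb1-KO library, yet the call held only without Lmo2tg replicate 1 or 4, with an adjusted p of up to 0.0936 without one of the other 8. Ifi44 passed the filter on low counts through its Ldb1-KO counts, so this call, the only one of the list, is a description. Among 14 MHC class I and peptide loading genes edgeR called 0 (unadjusted, 2 were higher and 0 lower, DESeq2 called 0, and the fit of 28 libraries 3 higher). B2m, the light chain of class I molecules, was 777 ± 166 CPM in Ldb1-KO and 870 ± 350 CPM in Lmo2tg. H2-Aa, an MHC class II chain from the dendritic cell markers, fell to 2.60 ± 1.97 CPM in Ldb1-KO, against 18.6 ± 20.2 CPM in Lmo2tg and 0.199 CPM in wild type DN4 (log2FC -2.85, SE 0.74, adjusted p = 0.0494). The H2-Aa call held only without replicate 4 of either group (adjusted p up to 0.128 without another library). The sums of dendritic and B-cell markers are given above, and the part of such cells in H2-Aa was not tested.

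Of the growth and metabolic genes, 1 changed. Among 27 genes of Myc and ribosome biogenesis edgeR and DESeq2 called 0, none was under an unadjusted p of 0.05, and the median log2FC was 0.01. Myc was 221 ± 30.8 CPM in Ldb1-KO and 220 ± 93.9 CPM in Lmo2tg, while wild type DN4 cells had 452 ± 48.5 CPM, and the nucleolar protein gene Npm1 was 1924 ± 236 CPM in Ldb1-KO and 1758 ± 636 CPM in Lmo2tg. Among 19 glycolysis genes edgeR called 0. Unadjusted, 4 were lower and 0 higher, beside 2506 of all 13106 genes in either direction. DESeq2 called 2 of them lower, and the fit of 28 libraries 3 lower. Gapdh was 1498 ± 436 CPM in Ldb1-KO and 1293 ± 711 CPM in Lmo2tg. Among 19 cholesterol synthesis genes edgeR and DESeq2 called 0, and 0 were under an unadjusted p of 0.05. Srebf2, their main activator, was 285 ± 36.5 CPM in Ldb1-KO and 387 ± 181 CPM in Lmo2tg. Of 17 genes of serine and one-carbon metabolism and amino acid stress, 1 fell (4 in the fit of 28 libraries): Trib3, a stress-induced pseudokinase, averaged 0.877 ± 0.363 CPM in Ldb1-KO and 2.79 ± 1.08 CPM in Lmo2tg (adjusted p = 0.0316). The Trib3 call ended with the replicate block and without Ldb1-KO replicate 1, 2, 3 or 5 or Lmo2tg replicate 2 or 5 (adjusted p up to 0.0900).

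Among 18 immediate early genes edgeR and DESeq2 called 0, and 1 was lower at an unadjusted p under 0.05. The list had a median log2FC of -0.53, and Jun was 264 ± 78.2 CPM in Ldb1-KO and 223 ± 73.0 CPM in Lmo2tg. Of 22 genes of Polycomb, trithorax and DNA methylation, 1 fell and none rose, beside 3.16% lower and 2.04% higher of all genes. Their median log2FC was -0.14. Unadjusted, 7 were lower and 1 higher, DESeq2 called 2 lower, and the fit of 28 libraries 5 lower and 1 higher. Kmt2d, a histone H3 lysine methyltransferase of enhancers, was 607, 349, 496, 528 and 489 CPM in Ldb1-KO, against 761, 683, 756, 712 and 824 CPM in Lmo2tg, with no overlap (log2FC -0.60, SE 0.14, adjusted p = 0.0355). The Kmt2d call ended without Ldb1-KO replicate 2, 3, 4 or 5 or Lmo2tg replicate 3 or 5 (adjusted p up to 0.0948).

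**Figure D4:**
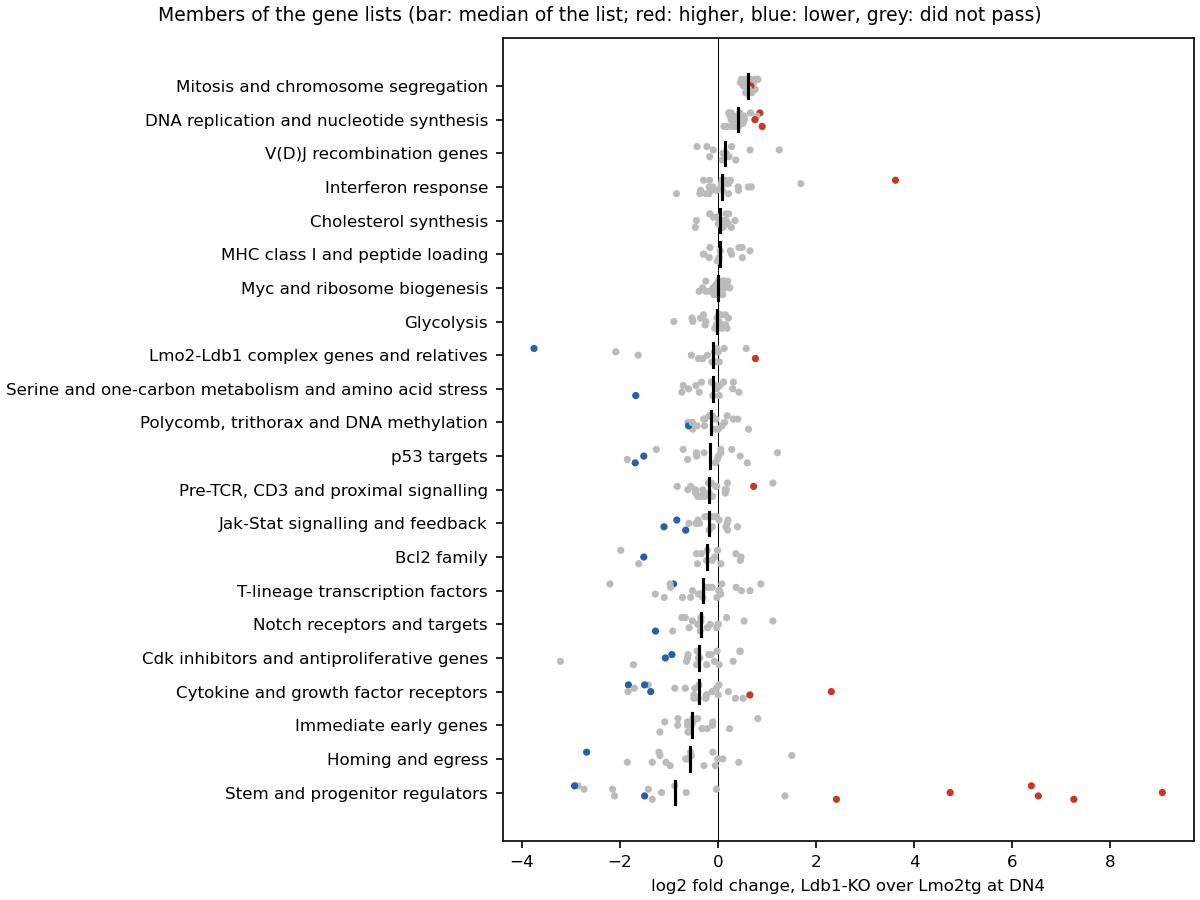
Log2 fold change (Ldb1-KO over Lmo2tg at DN4) of each tested member of the 22 gene lists, 1 point per gene, red where it rose, blue where it fell and grey where it did not pass, with a black bar at the list's median; the rightmost point, Hoxa3, is a fitted value of a gene with no Lmo2tg count and depends on the prior count. Mitosis (median 0.61) and replication (median 0.41) are the lists whose members all lie above 0, and the Hoxa genes are the rightmost points of the progenitor list.

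The effect of Ldb1 deletion at DN4 was then set against its effect at DN2/3. The difference between the stages was tested as an interaction in the 20 transgenic libraries, and 85 of 13959 genes (0.609%) differed: 5 had a more positive change at DN4 (0.0358%) and 80 a more negative one (0.573%). The number of genes was 238 without Lmo2tg DN4 replicate 4. It was 56 or fewer without Ldb1-KO DN4 replicate 2 or 5 or Ldb1-KO DN2/3 replicate 2 or 5. Libraries of one genotype with the same number deviated together at both stages, and with a term for each genotype and number, 497 genes (3.56%) had a more positive and 577 (4.13%) a more negative change at DN4, 1074 in all. That fit was added after the data were seen. It called all 85 genes in the same direction. Among the genes with a more negative change, those with the largest difference were higher in Ldb1-KO than in Lmo2tg at DN2/3, and wild type DN2/3 cells also averaged more of them than Lmo2tg. Scin, an actin-severing protein, averaged 275 ± 122 CPM in Ldb1-KO and 52.0 ± 24.7 CPM in Lmo2tg at DN2/3. At DN4 it was 2.65, 1.65, 2.59, 1.17 and 1.06 CPM in Ldb1-KO, against 12.4, 14.1, 55.9, 7.25 and 21 CPM in Lmo2tg (log2FC -3.59, SE 0.55, adjusted p = 0.00487). Scin thus changed sides between the stages (interaction, log2 -5.96, SE 0.70, adjusted p = 0.000773). Btk, a kinase of B-cell and myeloid signalling, averaged 14.9 ± 1.88 CPM in Ldb1-KO and 0.540 ± 0.757 CPM in Lmo2tg at DN2/3, and 0.566 ± 0.0909 CPM in Ldb1-KO and 1.63 ± 1.47 CPM in Lmo2tg at DN4 (interaction, log2 -6.27, SE 0.95, adjusted p = 0.00411). H19, an imprinted fetal RNA, averaged 176 ± 113 CPM in Ldb1-KO and 8.46 ± 7.30 CPM in Lmo2tg at DN2/3, and 3.59 ± 1.33 CPM in Ldb1-KO and 15.6 ± 17.2 CPM in Lmo2tg at DN4 (interaction, log2 -6.49, SE 1.11, adjusted p = 0.00809). Neither Btk nor H19 passed at DN4 alone (adjusted p = 0.154 for Btk and 0.153 for H19). Wild type DN2/3 cells (n = 4) had 121 ± 28.8 CPM of Scin, 11.7 ± 0.583 CPM of Btk and 155 ± 70.3 CPM of H19.

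Spi1, the gene of the myeloid and early progenitor factor PU.1, averaged 6.00 ± 1.23 CPM in Ldb1-KO and 0.329 ± 0.356 CPM in Lmo2tg at DN2/3 (interaction, log2 -5.62, adjusted p = 0.0380). At DN4 Spi1 was under 0.5 CPM in every Ldb1-KO library and averaged 0.340 ± 0.478 CPM in Lmo2tg. Lpcat2, a phospholipid-remodelling enzyme, behaved likewise, with 5.20 ± 1.75 CPM in Ldb1-KO and 0.304 ± 0.395 CPM in Lmo2tg at DN2/3 (interaction, log2 -5.62, adjusted p = 0.0478). At DN4 it averaged 0.0837 CPM in Ldb1-KO and 0.248 CPM in Lmo2tg. Both genes had too few counts to be tested at DN4 alone. They passed the filter in the 20 libraries mainly through Ldb1-KO DN2/3, where they were high. Their interaction calls are therefore a description. Wild type DN2/3 cells had 3.08 ± 0.419 CPM of Spi1 and 1.57 ± 0.564 CPM of Lpcat2. Cd44 also differed (interaction, log2 -3.98, SE 0.66, adjusted p = 0.00671): it was higher in Ldb1-KO at DN2/3, at 9.20 ± 1.32 CPM in Ldb1-KO and 3.75 ± 1.45 CPM in Lmo2tg. In the other direction, Arhgap19, a GTPase-activating protein of dividing lymphocytes, averaged 84.6 ± 10.6 CPM in Ldb1-KO and 236 ± 60.7 CPM in Lmo2tg at DN2/3, and 135 ± 13.6 CPM in Ldb1-KO and 129 ± 22.5 CPM in Lmo2tg at DN4 (interaction, log2 1.55, SE 0.21, adjusted p = 0.00177). E2f7, a repressor of E2f target genes, was the one of the 5 that rose at DN4, to 15.0 ± 1.87 CPM in Ldb1-KO, against 5.73 ± 1.33 CPM in Lmo2tg (log2FC 1.39, SE 0.19, adjusted p = 0.00284). At DN2/3 it was 4.80 ± 1.51 CPM in Ldb1-KO and 4.72 ± 0.966 CPM in Lmo2tg (interaction, log2 1.37, adjusted p = 0.0424). Slc43a1, Epb4.1 and Skap1 had smaller differences between the stages (interaction, log2 0.81, 0.56 and 0.48). The interaction calls on H19, Btk, Scin, Arhgap19 and Epb4.1 held without each of the 20 libraries, while those on Spi1, Lpcat2, E2f7, Slc43a1 and Skap1 each ended without at least 14 of them, with adjusted p up to 0.136.

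**Figure D5:**
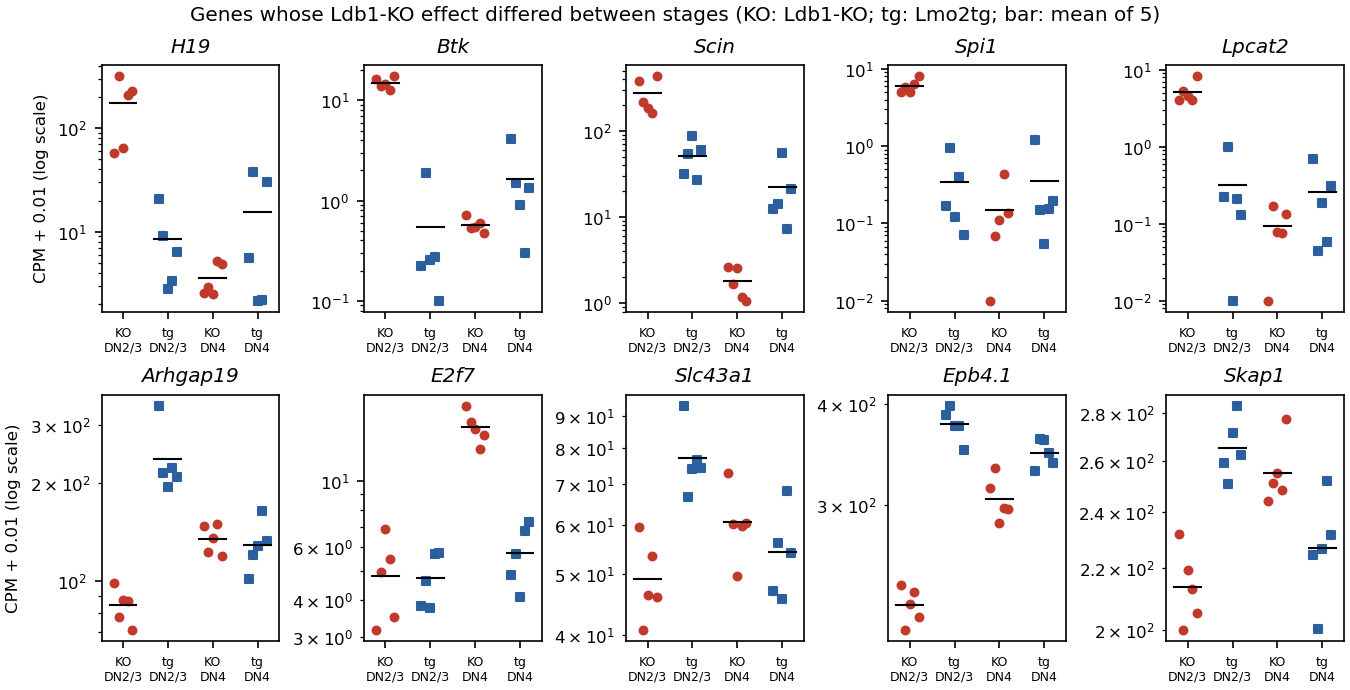
CPM in each transgenic library (log axis after adding 0.01) of the 10 genes whose Ldb1-KO effect differed most between stages in either direction, with Ldb1-KO (circles) left of Lmo2tg (squares) at DN2/3 and then at DN4. H19, Btk, Scin, Spi1 and Lpcat2 are high in Ldb1-KO at DN2/3 and low at DN4, and E2f7 is high in Ldb1-KO at DN4.

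The Hoxa genes, the other large rises and the large falls differed between the genotypes in level at DN2/3 as well. Mira averaged 9.11 ± 3.05 CPM in Ldb1-KO and 0.0202 ± 0.0451 CPM in Lmo2tg at DN2/3, and Hoxa7 8.26 ± 3.52 CPM in Ldb1-KO and 0.0488 ± 0.0581 CPM in Lmo2tg. Ryr2 averaged 0.263 ± 0.345 CPM in Ldb1-KO and 20.2 ± 12.7 CPM in Lmo2tg at DN2/3. Stat5a averaged 304 ± 63.1 CPM in Ldb1-KO and 632 ± 85.2 CPM in Lmo2tg there. For these 4 genes the interaction test was not passed (adjusted p = 0.952 for Mira, 0.965 for Hoxa7, 0.756 for Ryr2 and 0.968 for Stat5a), which does not show the effects to be equal. Nor was it passed with the term for genotype and number (adjusted p = 0.953 for Mira, 0.968 for Hoxa7, 0.468 for Ryr2 and 0.859 for Stat5a). Rrm2 averaged 271 ± 43.6 CPM in Ldb1-KO and 249 ± 92.6 CPM in Lmo2tg at DN2/3. Its difference between stages did not pass without that term (interaction, log2 0.79, SE 0.32, adjusted p = 0.442) and passed with it (log2 0.78, SE 0.13, adjusted p = 0.00774). The same held for Tyms (adjusted p = 0.504 without the term and 0.0134 with it), Ccne2 (0.614 and 0.0454), Ndc80 (0.495 and 0.0284), Mki67 (0.556 and 0.0164) and Ccna2 (0.556 and 0.0134), all with a more positive change at DN4, and for Kit (0.314 and 0.0209), Cdkn2a (0.689 and 0.0196), Mllt4 (0.607 and 0.0136), Heyl (0.508 and 0.0406), Ifi44 (0.182 and 0.0122), B2m (0.571 and 0.0430) and Jun (0.403 and 0.0272), with a more negative one. Ldb1 itself averaged 98.1 ± 26.9 CPM in Ldb1-KO and 397 ± 58.0 CPM in Lmo2tg at DN2/3, and the difference between the stages passed with that term (log2 -2.02, SE 0.41, adjusted p = 0.0165; without it log2 -1.73, SE 0.54, adjusted p = 0.221).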

How the data were processed

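RNA was measured in 28 samples of mouse thymocytes, 10 of which were compared. Per the labels' protocols, libraries were made with the TruSeq V2 RNA kit and read as paired ends of 101 bases on a HiSeq2500. Per the submitters' processing notes, reads were aligned to mm10 with STAR 2.5.2a and counted with featureCounts 1.4.6-p3. The deposited table holds unnormalized read counts for 24421 gene symbols. The sources used here name no annotation, no strand setting and no treatment of reads matching several places, so reads of overlapping or near-identical genes may be split or shared. Each column was matched to a sample through its description, and 0 columns stayed unmapped.

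The test was that of edgeR 4.0.16 in R 4.3.3 (TMM, filterByExpr by group, robust quasi-likelihood fit, two-sided F-test, Benjamini-Hochberg over all genes tested). The DN4 comparison was fitted on its 10 libraries. The stage difference was an interaction contrast in the 20 transgenic libraries. Alternatives were all 28 libraries, a replicate block, RLE and upper quartile scaling, DESeq2 1.42.0, 2 other filters and leaving out each library. A replicate block within genotype was added for the stage difference after the data were seen: DN4 and DN2/3 libraries of one genotype with the same number in the labels correlated in their deviations from the group means at 0.276 to 0.640 in all 10 pairs, each highest with its own number, though the labels do not say what the number marks. Replicates differed by more than sampling noise in every pair. The script was tested on simulated data. Positions come from GENCODE M21 (23384 symbols matched) and promoters from RefSeq (9856 of the genes tested).

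The named genes are Lmo2, Ldb1, the 10 largest rises and falls among called genes that averaged 5 CPM or more in the higher group, without overlap, up to 3 called members of each list with the smallest adjusted p (or the most abundant if none was called), and the 5 largest stage differences each way with at least 5 CPM in 1 group. Predicted genes were left out. Hoxa genes other than Hoxa3, Hoxa5 and Hoxa7, and Hhex, Lyl1, Gata1, Erg, Nfe2, Hmga2, Igf2bp3, Kit, Il9r, Cdkn2a, Ptcra, Rag2, Myb, Myc, Mki67, Ccna2, Tnfrsf10b, Itga4 and Itgb7, as well as other list members given only as values, were chosen after their values were seen. Some genes are not reported here. The comparison, the rule and the lists were chosen with earlier results of these data known.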

Additional observations from a re-analysis of the deposited data

Results flagged for a closer look

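Among 164 sets of 5 libraries checked (a named gene in 1 group), 18 had a library whose gap to the next exceeded Dixon's 95% limit. Chance gives about 1 in 20 for normally spread values. CPM are skewed, and a set with counts in a single library, such as Mira in Lmo2tg, is always flagged. The 18 therefore cannot be read against that rate. In Ldb1-KO these were replicate 4 for Aim2 (14.2 CPM), Kctd17 (17.0 CPM), Faxc (0.584 CPM) and Slc40a1 (1.75 CPM), replicate 3 for Ephb4 (1.78 CPM), Dlx1 (0.907 CPM), B2m (1068 CPM) and Hoxa9 (8.44 CPM), and replicate 2 for Rag2 (86.6 CPM). In Lmo2tg they were replicate 1 for Lmo2 (68.9 CPM), Mira (0.0965 CPM), Aim2 (3.43 CPM), Zfp518b (1.22 CPM), Ifi44 (0.515 CPM) and Hoxa9 (0.129 CPM), replicate 3 for Itga4 (2320 CPM), and replicate 4 for Kctd17 (2.73 CPM) and Il9r (51.7 CPM). Lmo2tg replicate 1, with the small amounts of Hoxa9 and Mira, is also the Lmo2tg library with the most Cd4 and B-cell markers, and their part was not tested.

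The Ldb1-KO effect at DN4 minus that at DN2/3 differed from 0 by the interaction test for Cd44 (log2 -3.98), H19 (log2 -6.49), Btk (log2 -6.27), Scin (log2 -5.96), Spi1 (log2 -5.62), Lpcat2 (log2 -5.62), Arhgap19 (log2 1.55), E2f7 (log2 1.37), Slc43a1 (log2 0.81), Epb4.1 (log2 0.56) and Skap1 (log2 0.48). Spi1 and Lpcat2 were low in both genotypes at DN4 and passed the filter mainly through Ldb1-KO DN2/3.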

How the results depend on the processing

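None of the 50 named calls and none of the shared DN4 calls changed direction in an alternative. The median log2FC over all genes, -0.02, became 0.01 with the replicate block and 0.00 without Lmo2tg replicate 4. Of 50 named genes called at DN4, 26 kept their call in every alternative that gave a fold change and 27 without each library in turn. Aim2, for which DESeq2 gave no adjusted p, is not among the 26. The counts of genes moved most: 267 higher and 414 lower in the 10 libraries became 841 and 1251 with all 28 libraries and 571 and 874 with DESeq2. Leaving out a library gave 123 to 532 higher and 171 to 658 lower. For the stage difference, 5 more positive and 80 more negative became 19 and 176 with 28 libraries and 26 and 230 with DESeq2, and 2 to 34 and 51 to 204 without one library. The share of higher calls was 36.5 to 45.7% at DN4 and, of more positive ones, 2.86 to 14.3% for the stage difference before any block within genotype, and 46.3% with it.

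Libraries of different genotypes share replicate numbers. Same-numbered libraries correlated at 0.10, 0.12, 0.39, 0.34 and -0.07, and only Ldb1-KO replicates 3 and 4 correlated best with the Lmo2tg library of their own number, so the numbers were not taken as pairs. With the replicate block the counts were 263 higher and 418 lower at DN4, with 538 of the 681 calls shared, and 25 and 153 for the stage difference. With the replicate block within genotype, an alternative chosen after seeing the data, the stage difference had 497 and 577, all 85 calls among them. Of the 50 named calls, 4 were lost with the block (Ccne2, Ndc80, Cdkn1c and Trib3), as were those of the markers Gzmb, H2-Aa and Epcam.

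At 31.3 to 67.9 M counts a library, genes with few counts, such as Hoxa10 and Hoxa13, could not be tested.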
